A study of Caenorhabditis elegans with 24 samples.

Results

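The nspa, nspb, nspc and nspe genes of Caenorhabditis elegans are classes of nematode-specific peptides, and 40 of the 52 genes with these symbols are described here. The members were those with 10 or more counts summed over the 24 libraries, out of 46778 genes in the count table. They comprised 5 of 12 nspa, 10 of 12 nspb, 18 of 20 nspc and 7 of 8 nspe genes. They were chosen by these summed counts, so the sums are a description only. Just inside the minimum lay nspc-5 and nspe-8 with 15 counts each, and just outside it lay nspe-3 with 9, while the other genes left out had 0 to 8. All 40 members are annotated as protein-coding, and 4 of the 12 genes left out are annotated as pseudogenes.

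The nsp symbols group short predicted peptides by resemblance within nematodes, and many of their genes lie in tandem arrays of near copies. Their biochemical roles are not given by the annotation, so the members are described by class, position and level rather than by function. UNC-1 is a stomatin-like membrane protein that regulates gap junctions in muscle and neurons, and NHR-1 is a nuclear hormone receptor, a ligand-regulated transcription factor.

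RNA was sequenced from whole young adults grown at 20 °C from synchronised first-stage larvae, each library being a pool of many animals of 1 strain. All 4 genotypes carried the same transgene on the X chromosome, a tract of 40 glutamines fused to YFP (40Q::YFP) that the unc-54 promoter expresses in body wall muscle, so no group lacked polyglutamine. The reference, called 40Q, was strain AM141 with no other allele. The unc-1(vlt10) group (RVM10) carried an allele recovered from a chemical mutagenesis screen, the nhr-1(vlt16) group (RVM293) carried an allele made by CRISPR, and the double mutant (RVM294) carried both. The labels call the 6 libraries of each genotype biological replicates. Each genotype was a single strain, so background differences between strains and the alleles cannot be told apart. The library labels begin with A for 40Q and with R for every mutant genotype, and the meaning of the letters is not given. Any difference in handling between 40Q and the mutants therefore cannot be told apart from the alleles either.

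Total counts ran from 19098458 to 30467364 per library, with medians of 21830937 in 40Q, 21474733 in unc-1(vlt10), 21993626 in nhr-1(vlt16) and 27525192 in the double mutant, which was the most deeply sequenced group. The mutated genes were checked first. unc-1 was at 8.13 ± 1.28 CPM (counts scaled to library size, mean ± SD, n = 6) in 40Q and 6.37 ± 0.856 in nhr-1(vlt16), against 1.10 ± 0.267 in unc-1(vlt10) and 0.903 ± 0.0791 in the double mutant. nhr-1 was at 28.1 ± 1.91 CPM in 40Q and 25.6 ± 2.70 in unc-1(vlt10), against 14.8 ± 1.82 in nhr-1(vlt16) and 14.3 ± 1.82 in the double mutant. Both genes lay lower in the groups whose labels carry their allele. The sample is the whole animal, and all 4 listed markers of body wall muscle, of hypodermis and of neurons were detected. In bulk RNA, fewer cells of a type and less RNA per cell cannot be told apart.

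The classes sat in different places of the genome (WBcel235). All 8 nspe genes lay in a single locus of chromosome II, from 12612518 to 12629384. The nspc genes lay in 3 loci of the X chromosome, namely nspc-1 to nspc-7 at 8534672 to 8542283, nspc-8 to nspc-15 at 12342289 to 12361159, and nspc-16 to nspc-20 at 14523575 to 14530207. These loci were 7472, 11280 and 13461 kb from unc-1 and 8972, 5153 and 2984 kb from nhr-1, which are on the same chromosome. The nspb genes were spread over chromosomes II, III and IV, and 4 of the 5 nspa members lay together on chromosome V at 14878348 to 14891186. Gene structure followed class. The 5 nspa members had 1 exon of 105 bases each, the nspb and nspc members had 2 exons and exonic lengths of 240 to 522 and 306 to 448 bases, and the nspe members had 1 or 2 exons and 216 to 1448 bases. There were 9 nspc members on each strand, and 3 nspe members on the plus and 4 on the minus strand.

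Per length, the nspc class held the most abundant members. Mean FPKM over the 24 libraries was 66.4 for nspc-14, 57.9 for nspc-20, 54 for nspc-7 and 44.8 for nspe-1, which led the 40 members. In 40Q, the 3 nspc genes at the top stood at 108 ± 14, 86.0 ± 11.7 and 78.4 ± 19.9 FPKM (SD, n = 6). The libraries of these neighbours in the order overlapped, nspc-14 spanning 91.6 to 125 FPKM, nspc-20 69.1 to 99.2 and nspc-7 52.8 to 98.1. At the other end, every nspa and nspb member had a mean of 2.14 FPKM or less, and the lowest member, nspc-5, had 0.0882 FPKM. Measured abundance therefore varied widely within the nspc class as well as between classes, since genes a few kb apart in the same locus differed from 0.0882 (nspc-5) to 54 FPKM (nspc-7). Reads that match several near copies may have been split or dropped in counting, and their part in these levels was not tested.

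Summed over members and scaled to depth, the classes followed different courses over the genotypes. The nspe sum was 27.0 ± 2.26 CPM in 40Q and 1.71 ± 0.515 in unc-1(vlt10), and was 40.8 ± 4.84 in nhr-1(vlt16) and 38.5 ± 5.66 in the double mutant. The nspc sum was 249 ± 36.5 CPM in 40Q, 120 ± 11.7 in unc-1(vlt10), 158 ± 14.3 in nhr-1(vlt16) and 112 ± 11.5 in the double mutant. The nspe level was thus low in unc-1(vlt10) alone, whereas the nspc level was below 40Q in all 3 mutant strains and was no higher in the double mutant than in unc-1(vlt10). The nspb sum stayed between group means of 1.23 and 2.15 CPM and the nspa sum between 0.639 and 1.52 CPM, so both rest on few reads.

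**Figure D1:**
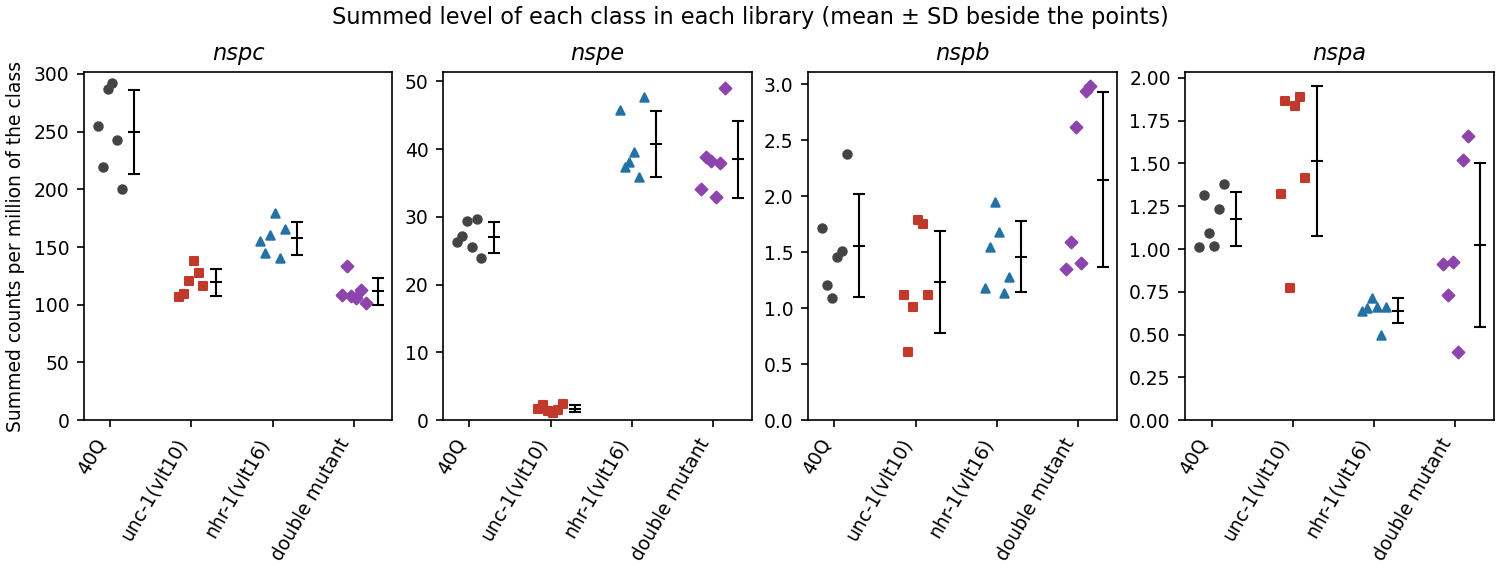
Summed CPM of the nspc, nspe, nspb and nspa members in each of the 24 libraries, by genotype, on linear axes that start at 0, with the group mean ± SD drawn beside the points. The 6 unc-1(vlt10) libraries lie between 1.09 and 2.46 CPM for nspe, under every other library, and the nspc sums of the 3 mutant strains lie below all 40Q libraries, which start at 200 CPM.

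A filter on low counts, applied to the whole table, kept 14865 genes and 25 of the 40 members, namely 17 nspc, 5 nspe, 2 nspb and 1 nspa gene. A gene had to exceed 0.442 CPM in at least 6 libraries of any genotypes, and nspc-6 did so in 6 libraries and nspe-5 in 10, none of them from unc-1(vlt10), while nspa-8 did so in 7, none of them from nhr-1(vlt16). nspe-4 did so in 4 unc-1(vlt10) libraries, 1 of 40Q, 2 of nhr-1(vlt16) and 1 of the double mutant, too few without unc-1(vlt10). Members kept in this way had passed through the groups where they were high, so the counts of calls below describe the tested members and do not stand for all 40. A call required a change of over 2-fold and an adjusted p below 0.05. These p-values came from the quasi-likelihood test of edgeR and were adjusted over all 14865 genes by the Benjamini-Hochberg method.

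The first comparison set the unc-1(vlt10) strain against 40Q, both with the polyglutamine transgene. Of the 25 tested members, 14 fell and none rose in unc-1(vlt10) against 40Q, where 5.95% of all tested genes were called, 3.26% lower and 2.68% higher. The 14 were nspe-1, nspe-2, nspe-5 and nspe-7 and 10 nspc genes. Of these, nspe-5 and nspc-6 had passed the filter on low counts through no unc-1(vlt10) library. Their calls carry the selection and add no support to the count. The median log2 fold change was -1.05 over the tested members and 0.02 over all tested genes. In 15 members the highest unc-1(vlt10) library was under the lowest of 40Q, which held for 13.3% of all tested genes. At any fold change 18 members were lower and 1, nspe-4, was higher at an adjusted p below 0.05, against 22.6% and 25.1% of all tested genes. nspe-4 had passed the filter only with its unc-1(vlt10) libraries, so its value carries the selection as well. DESeq2 also called 14 members lower and none higher. With total counts alone setting the depth, 11 were called lower and 1, nspe-4, higher.

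The nspe genes changed by far more than the nspc genes. nspe-1, on the minus strand of chromosome II from 12620649 to 12620864, had its lowest, median and highest library at 12.4, 14.3 and 17.4 CPM in 40Q. In unc-1(vlt10) the same gene stood at 0.350, 0.475 and 0.611 CPM, or 8 to 13 reads per library. In nhr-1(vlt16) its libraries gave 19.95, 20.96 and 27.7 CPM and in the double mutant 20.5, 23.4 and 30.1 CPM. The unc-1(vlt10) libraries were thus far below all others, with no overlap, and the nhr-1(vlt16) and double mutant libraries overlapped each other above all of 40Q. The log2 fold change of nspe-1 in unc-1(vlt10) against 40Q was -4.93 ± 0.16 (SE), or 30.4-fold lower, with an adjusted p of 1.9e-21 in edgeR's quasi-likelihood test.

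nspe-2 is the neighbour of nspe-1 on the same strand, from 12619173 to 12619388, and both have a single exon of 216 bases. Its lowest, median and highest libraries were 5.13, 5.67 and 6.52 CPM in 40Q and 0.0509, 0.206 and 0.466 CPM in unc-1(vlt10). They were 6.998, 7.38 and 9.60 CPM in nhr-1(vlt16) and 6.60, 7.71 and 10.1 CPM in the double mutant. The order of the genotypes was that of nspe-1, and unc-1(vlt10) again overlapped with no other genotype. nspe-2 fell by 4.54 ± 0.20 on the log2 scale in unc-1(vlt10) against 40Q, with an adjusted p of 1.83e-18 in edgeR's quasi-likelihood test.

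nspe-7, from 12627187 to 12627570 on the plus strand, read 5.05, 5.68 and 6.54 CPM in its lowest, median and highest 40Q library and 0.0966, 0.240 and 0.447 CPM in unc-1(vlt10). In nhr-1(vlt16) these were 7.68, 9.38 and 11.2 CPM, and in the double mutant 4.58, 5.68 and 7.05 CPM. nspe-7 therefore parted from nspe-1 and nspe-2 in the double mutant, whose libraries overlapped with 40Q and lay below every nhr-1(vlt16) library. Its log2 fold change in unc-1(vlt10) against 40Q was -4.42 ± 0.19, with an adjusted p of 8.44e-19 in edgeR's quasi-likelihood test.

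nspe-5, the last gene of the locus, was a low-count member. Its 6 libraries summed to 44 reads in 40Q, 2 in unc-1(vlt10), 86 in nhr-1(vlt16) and 101 in the double mutant, and 4 of the unc-1(vlt10) libraries had none. Scaled to depth, 40Q exceeded unc-1(vlt10) 23.1-fold, with a 95% interval for counting error alone of 6.03 to 197. The adjusted p was 3.76e-06 in edgeR's quasi-likelihood test, but the size of the change is loosely set by 2 reads. The gene had passed the filter on low counts through no unc-1(vlt10) library, so this call carries the selection.

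nspe-4, at the other end of the locus, did not follow this course. Its lowest, median and highest libraries were 0.158, 0.232 and 0.534 CPM in 40Q and 0.218, 0.621 and 0.782 CPM in unc-1(vlt10), so the groups overlapped. Its log2 fold change in unc-1(vlt10) was 0.99 ± 0.41 with an adjusted p of 0.0462 in edgeR's quasi-likelihood test, just short of 2-fold and so not called. It was called higher when total counts alone set the depth, and also without 40Q replicate 4, unc-1(vlt10) replicate 4 or unc-1(vlt10) replicate 5, with adjusted p of 0.0221, 0.0214 and 0.0452 in edgeR. nspe-4 had passed the filter on low counts only with its unc-1(vlt10) libraries, so these values carry the selection. The 3 remaining genes of the locus, nspe-6, nspe-8 and nspe-3, were too low to test, nspe-6 having 28, 17, 39 and 45 reads over the libraries of the 4 genotypes, in the order 40Q, unc-1(vlt10), then nhr-1(vlt16) and double mutant.

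**Figure D2:**
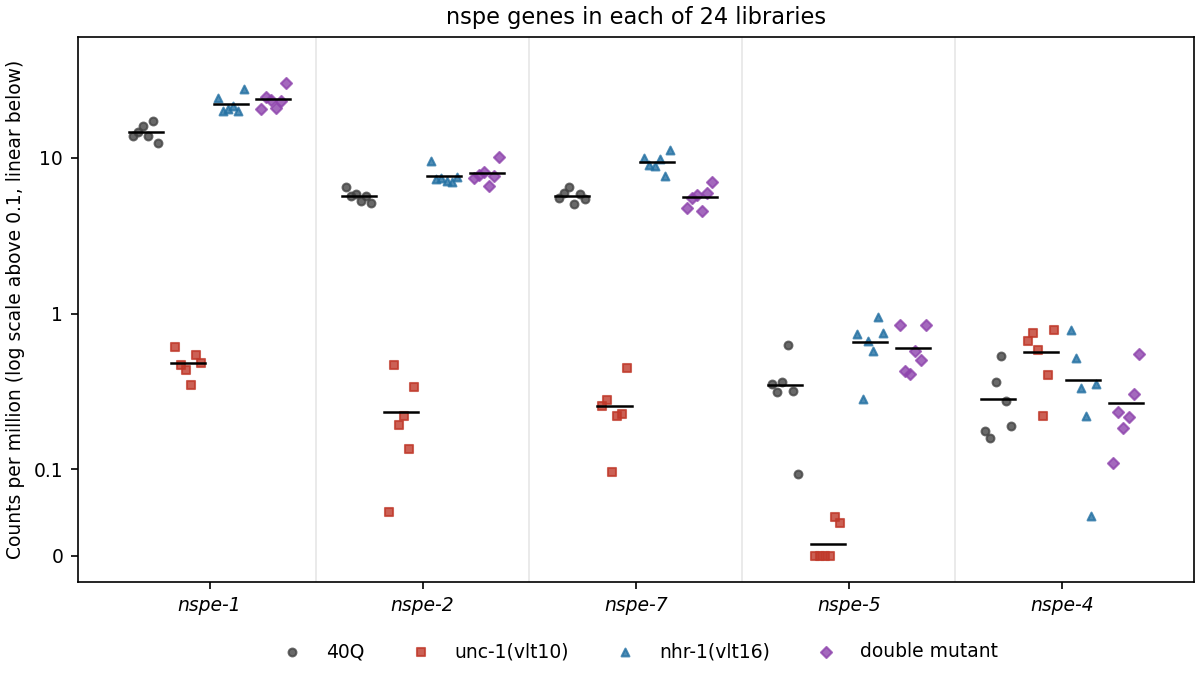
CPM of the 5 tested nspe genes in each of the 24 libraries, on an axis that is logarithmic above 0.1 and linear below, with a bar at each group mean. For nspe-1, nspe-2, nspe-7 and nspe-5 the unc-1(vlt10) points lie below all others, while for nspe-4 the genotypes overlap.

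The 4 nspe genes that fell occupied 1 side of the locus, and most genes around them did not move with them. Within 20 kb of the locus 6 other genes were tested, and 1 was called lower in unc-1(vlt10). That gene, Y38E10A.14, lies among the nspe genes, between nspe-1 and nspe-7, and was named after its values were seen. It had a log2 fold change of -1.44 (adjusted p 1.27e-17, edgeR's quasi-likelihood test), a smaller change than that of its nspe neighbours, and 0.67 in the double mutant against unc-1(vlt10). The other 5 genes ranged from -0.19 to 0.60, with lips-16, beside nspe-4, at 0.60.

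**Figure D3:**
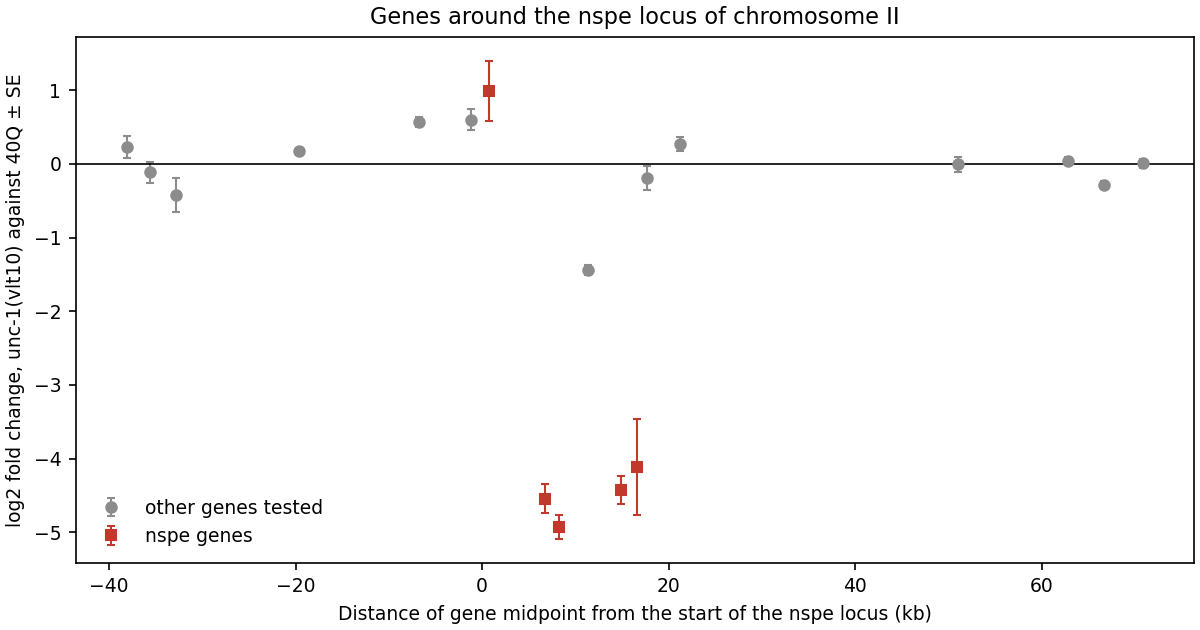
Log2 fold change ± SE in unc-1(vlt10) against 40Q of the tested genes around the nspe locus, against the distance of each gene's midpoint from the start of the locus in kb. The nspe genes at 6.76, 8.24, 14.9 and 16.6 kb lie between -4.93 and -4.11, Y38E10A.14 at 11.3 kb lies at -1.44, and nspe-4 at 0.75 kb lies at 0.99.

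Among the nspc genes, 10 of 17 tested fell in unc-1(vlt10) and none rose, and all 17 log2 fold changes were below 0, from -2.01 to -0.27. The most abundant member, nspc-14 (X chromosome, 12358614 to 12359057), gave lowest, median and highest libraries of 38.0, 47.2 and 52.8 CPM in 40Q and 16.9, 22.4 and 23.3 CPM in unc-1(vlt10). They did not overlap, and the log2 fold change was -1.09 ± 0.08 (adjusted p 2.74e-13, edgeR's quasi-likelihood test). nspc-7, in another locus, ranged from 20.1 to 38.1 CPM in 40Q and from 11.9 to 18.97 CPM in unc-1(vlt10), again without overlap, with a log2 fold change of -1.08 ± 0.17. nspc-20, in the last locus, was close to the threshold from the other side, with 27.4 to 38.9 CPM in 40Q, 17.3 to 19.8 CPM in unc-1(vlt10) and -0.89 ± 0.07.

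nspc-16 and nspc-13 had the lowest log2 fold changes of the class in unc-1(vlt10). nspc-16 had lowest, median and highest libraries of 3.26, 3.45 and 4.14 CPM in 40Q and 0.560, 0.886 and 1.12 CPM in unc-1(vlt10). nspc-13 had 6.73, 8.49 and 9.59 CPM in 40Q and 1.83, 2.23 and 3.06 CPM in unc-1(vlt10). In neither gene did the groups overlap. Their log2 fold changes were -2.01 ± 0.17 and -1.83 ± 0.12, with adjusted p of 2.19e-11 and 2.92e-14 in edgeR's quasi-likelihood test. They lie in different loci, each beside genes that changed less.

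Of these 14 calls, 11 stood in each of 24 fits that left out 1 library. nspc-18 slipped under 2-fold without unc-1(vlt10) replicate 1 or 2 (log2 -0.96 and -0.99), and nspc-17 without 40Q replicate 1 (-0.83). nspc-12 missed the adjusted p without 40Q replicate 5 or unc-1(vlt10) replicate 6 (0.0793 and 0.0582, edgeR's quasi-likelihood test). In the other direction, nspc-1 and nspc-4, at -0.98 and -0.95 with all libraries, each crossed 2-fold in 6 of the 24 fits. Among marker lists, yolk proteins were also lower in unc-1(vlt10), where 3 of 6 were called and their summed level was 32220 to 36370 CPM, against 46420 to 51210 CPM in 40Q, 41120 to 46720 CPM in nhr-1(vlt16) and 34320 to 45580 CPM in the double mutant. Of the intestinal markers 1 of 5 was called lower, and their sum was 390 to 419 CPM in unc-1(vlt10) against 593 to 706 CPM in 40Q, 491 to 523 CPM in nhr-1(vlt16) and 471 to 565 CPM in the double mutant. The sums of the hypodermal and body wall muscle markers were lower too, at 1214 to 1275 against 1584 to 1877 CPM and at 2491 to 2793 against 3260 to 3828 CPM, with none of the 4 markers of either list called. Of 5 tested pharyngeal gland markers 1 was called lower, and their sum was 19.1 to 24.3 against 27.3 to 35.7 CPM. No listed marker was at 0, and the part of these tissues in the nspe and nspc results was not tested. Muscle sums were also under every 40Q library in nhr-1(vlt16), at 2624 to 2871 CPM.

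The nhr-1(vlt16) strain was compared with 40Q next. The tested nspe genes had log2 fold changes above 0 and most nspc genes had them below 0. Of the 25 tested members, 3 fell and none rose against 40Q, where 1.33% of all tested genes were called lower and 1.37% higher. The 3 were nspc-18, nspc-19 and nspa-8. At any fold change, 12 members were lower and 4 were higher at an adjusted p below 0.05, against 22% and 20.5% of all tested genes. All 4 of the higher ones were nspe genes and 11 of the 12 lower ones were nspc genes.

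nspe-1 was at a log2 fold change of 0.60 ± 0.09 in nhr-1(vlt16), nspe-2 at 0.43 ± 0.11 and nspe-7 at 0.72 ± 0.11, with adjusted p of 5.15e-06, 0.00339 and 4.74e-06 in edgeR's quasi-likelihood test. None reached 2-fold, although for all 3 the lowest nhr-1(vlt16) library was above the highest of 40Q, which held for 7.85% of all tested genes. nspe-5 was at 0.92 ± 0.32 (adjusted p 0.021, edgeR's quasi-likelihood test) and was called higher without 40Q replicate 4 (1.15) or nhr-1(vlt16) replicate 2 (1.05).

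nspc-18 and nspc-19, neighbours in the last X locus, were the nspc genes called. nspc-18 (14527170 to 14527659) had lowest, median and highest libraries of 10.7, 14.2 and 15.3 CPM in 40Q and 5.18, 5.71 and 6.25 CPM in nhr-1(vlt16). nspc-19 (14528699 to 14529114) had 6.36, 7.59 and 8.28 CPM in 40Q and 2.45, 2.93 and 3.53 CPM in nhr-1(vlt16). The groups did not overlap for either gene, and both calls stood in all 24 fits that left out 1 library. In all, 7 members were lower in nhr-1(vlt16) with no overlap, against 10.2% of all tested genes. Their log2 fold changes were -1.25 ± 0.11 and -1.35 ± 0.12, with adjusted p of 2.54e-10 and 4.25e-10 in edgeR's quasi-likelihood test. The genes lowest in unc-1(vlt10) stood elsewhere in this order, nspc-16 at -0.44 ± 0.15 and nspc-13 at -0.25 ± 0.10 in nhr-1(vlt16).

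nspa-8, the only nspa gene tested, had 6 to 14 reads per library in 40Q and 1 to 7 in nhr-1(vlt16), and the groups overlapped. Its log2 fold change was -1.09 ± 0.40 with an adjusted p of 0.0287 in edgeR's quasi-likelihood test. The gene had passed the filter on low counts through 7 libraries of the other genotypes and none of nhr-1(vlt16), so this call carries the selection and adds no support to the count of 3. The call was lost without 40Q replicate 1, 40Q replicate 5, nhr-1(vlt16) replicate 1 or nhr-1(vlt16) replicate 3, with adjusted p of 0.0655, 0.0623, 0.0516 and 0.0682. nspa-8 overlaps the abundant gene W06A7.4, and since the library protocol does not mark strand, reads of the pair may be hard to assign. Sperm proteins also fell in nhr-1(vlt16). Of 37 tested, 13 were called lower, and their summed level was 173 to 221 CPM, against 342 to 471 CPM in 40Q, 369 to 412 CPM in unc-1(vlt10) and 319 to 369 CPM in the double mutant. None of the 47 listed genes was at 0 in all libraries, and their part in the nspa-8 and nspc results was not tested. Neuronal marker sums were 336 to 346 CPM in nhr-1(vlt16) against 354 to 397 CPM in 40Q with none of 4 called, and pharyngeal gland sums were 21.5 to 23.7 CPM with 1 of 5 called lower. Their part was not tested either.

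With both alleles together, only nspc genes differed from 40Q by more than 2-fold. Of the 25 tested members, 10 fell and none rose in the double mutant, where 0.727% of all tested genes were called lower and 1.29% higher. All 10 were nspc genes, all 17 tested nspc genes had log2 fold changes below 0, from -2.09 to -0.59, and each of the 10 calls stood in all 24 fits that left out 1 library. In 10 members the double mutant libraries were all under those of 40Q, and in 2 they were all above, against 6.63% and 5.09% of all tested genes. nspc-17 was close to the threshold at -0.92 ± 0.25 and crossed it in 4 of those fits. Muscle marker sums, at 2502 to 3238 CPM, and neuronal ones, at 314 to 345 CPM, were under every 40Q library in the double mutant, with none called. So were the sums of yolk proteins, at 34320 to 45580 CPM, and of somatic gonad markers, at 133 to 137 CPM, with none called. Intestinal sums, at 471 to 565 CPM, were also under every 40Q library, and 1 of 5 markers was called lower. Moulting and larval cuticle sums, at 91.6 to 109 CPM, were above every 40Q library, with none called. Their part in the nspc result was not tested.

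Within the nspc class the depth of the fall in the double mutant differed from gene to gene. nspc-16 gave 0.547, 0.819 and 1.18 CPM in its lowest, median and highest double mutant library, a log2 fold change of -2.09 ± 0.17 against 40Q. nspc-13 gave 1.62, 2.02 and 2.30 CPM and -2.04 ± 0.12, and nspc-19 gave 1.46, 1.84 and 2.67 CPM and -1.98 ± 0.12. The first and second of these stood near their unc-1(vlt10) levels, whereas nspc-19 had a lower median than either single mutant and overlapped with nhr-1(vlt16) only. By contrast nspc-14, at 15.7 to 21.1 CPM, had -1.38 ± 0.08, nspc-20, at 14.3 to 17.2 CPM, had -1.09 ± 0.07, and nspc-7, at 11.1 to 23.98 CPM, had -0.76 ± 0.16 and was not called.

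**Figure D4:**
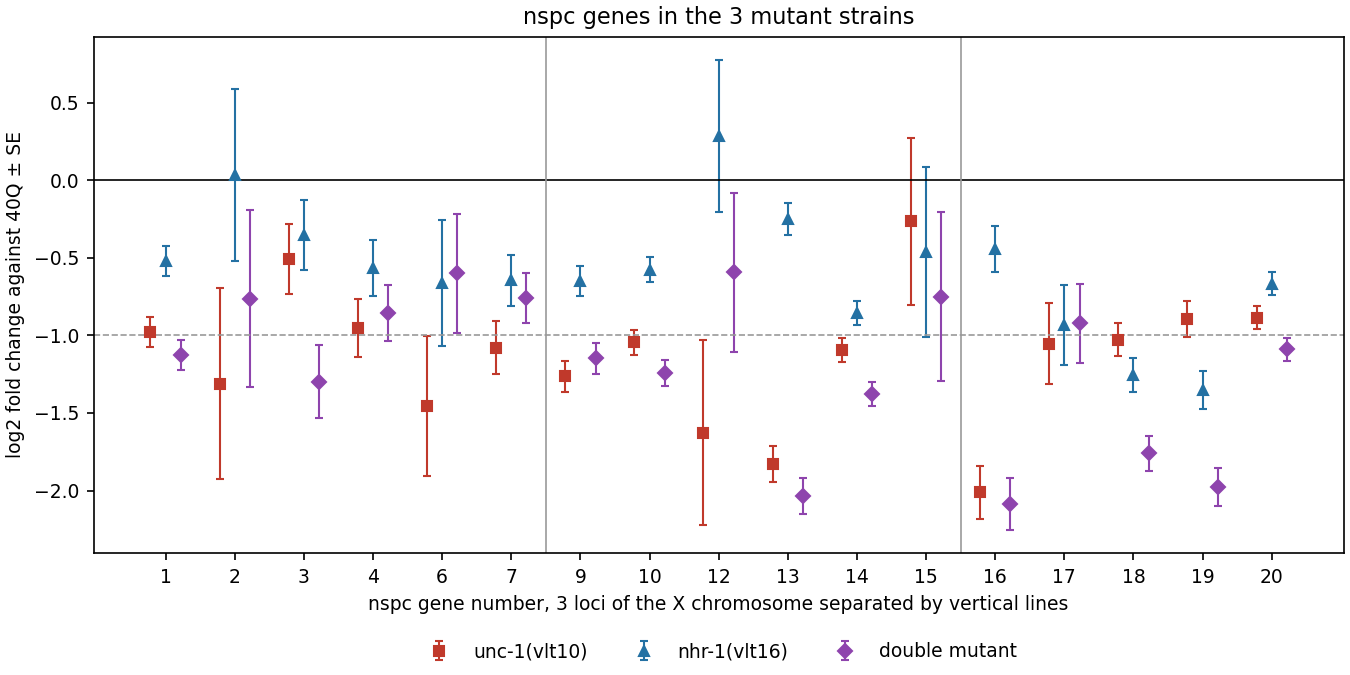
Log2 fold change ± SE against 40Q of the 17 tested nspc genes in unc-1(vlt10), nhr-1(vlt16) and the double mutant, in gene-number order, with vertical lines between the 3 loci and a dashed line at 2-fold lower. Nearly all points lie below 0, and nspc-18 and nspc-19 are lower in nhr-1(vlt16) than in unc-1(vlt10). nspc-13 and nspc-16 lie below the dashed line in unc-1(vlt10) and the double mutant but not in nhr-1(vlt16).

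For the nspe genes the double mutant gave values near or above 40Q. nspe-1 was at a log2 fold change of 0.69 ± 0.09 and nspe-2 at 0.48 ± 0.11 (adjusted p 4.76e-07 and 0.00135, edgeR's quasi-likelihood test), both under 2-fold. nspe-7 was at -0.03 ± 0.11 and nspe-4 at -0.09 ± 0.45. nspe-5 was at 0.78 ± 0.32 (adjusted p 0.0564, edgeR's quasi-likelihood test) and was called higher without 40Q replicate 4, at 1.02.

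The double mutant was also set against unc-1(vlt10), the strain without the nhr-1(vlt16) allele. Of the 25 tested members 4 rose and 2 fell, against 3.59% and 2.41% of all tested genes. The 4 that rose were nspe-1, nspe-2, nspe-5 and nspe-7, at log2 fold changes of 5.62 ± 0.15, 5.03 ± 0.19, 4.90 ± 0.56 and 4.40 ± 0.18. Their adjusted p were 3.54e-23, 4.44e-20, 1.25e-08 and 7e-19 in edgeR's quasi-likelihood test, and no library of the 2 genotypes overlapped for them. In all, 4 members were higher and 3 lower with no overlap, against 12.3% of all tested genes in each direction. At any fold change 4 were higher and 6 lower at an adjusted p below 0.05, against 21.6% and 21.7% of all tested genes. The 4 calls higher stood in all 24 fits that left out 1 library. The call of nspe-5, which had passed the filter through no unc-1(vlt10) library, carries the selection and adds no support to the count. Of the markers, 3 of 6 yolk proteins were called higher too, and none outside that list. Sums were above every unc-1(vlt10) library for intestine (471 to 565 against 390 to 419 CPM), hypodermis and pharyngeal gland. They were below every one for neurons (314 to 345 against 396 to 416 CPM), sperm proteins, and oocyte and eggshell genes. Their part was not tested.

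The 2 that fell were nspe-4 and nspc-19. Of the libraries in which nspe-4 exceeded the minimum of the filter, 4 were from unc-1(vlt10), where it was highest. It had 1 in 40Q, 2 in nhr-1(vlt16) and 1 in the double mutant, too few without unc-1(vlt10). The call of nspe-4 therefore carries the selection and adds no support to the count. nspe-4 was at -1.08 ± 0.39 (adjusted p 0.0253, edgeR's quasi-likelihood test), its libraries running from 0.109 to 0.553 CPM in the double mutant and overlapping with unc-1(vlt10). It lost its call without unc-1(vlt10) replicate 2 or 6 or double mutant replicate 1 or 3, with adjusted p of 0.0603, 0.0752, 0.0655 and 0.0541. nspc-19 was at -1.08 ± 0.13 (adjusted p 2.68e-08, edgeR's quasi-likelihood test), with 3.40 to 4.55 CPM in unc-1(vlt10) and no overlap. Among the other nspc genes, log2 fold changes ran from -0.79 to 1.03 and none was called.

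When the double mutant was set against nhr-1(vlt16), the strain without the unc-1(vlt10) allele, no nspe gene was called. Of the 25 tested members 2 fell and none rose, where 0.888% of all tested genes were called, 0.215% lower and 0.673% higher. DESeq2 also called 2 lower and none higher. The 2 were nspc-13, at -1.79 ± 0.12 (adjusted p 8.21e-13), and nspc-16, at -1.65 ± 0.17 (adjusted p 2.09e-08, both edgeR's quasi-likelihood test), and both calls stood in all 24 fits that left out 1 library. nspc-13 had 6.13 to 7.31 CPM and nspc-16 1.97 to 3.58 CPM in nhr-1(vlt16), with no overlap with the double mutant. In all, 9 members had every double mutant library lower, against 4.64% of all tested genes. At any fold change 11 members were lower and none higher at an adjusted p below 0.05, against 9.54% and 9.47% of all tested genes. In that group nspe-7 stood at -0.75 ± 0.11, whereas nspe-1 stood at 0.09 ± 0.09, nspe-2 at 0.06 ± 0.11 and nspe-5 at -0.14 ± 0.28, none of which passed.

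The interaction asked whether the effect of unc-1(vlt10) differed with and without nhr-1(vlt16). It was called in 7 of the 25 tested members, higher in 6 and lower in 1, where 8.84% of all tested genes were called, 5.44% higher and 3.40% lower. For nspe-1 the effect differed by 5.02 ± 0.19 on the log2 scale, for nspe-2 by 4.60 ± 0.23, for nspe-5 by 3.97 ± 0.73 and for nspe-7 by 3.68 ± 0.23. Their adjusted p were 3.87e-19, 3.81e-16, 4.51e-05 and 3.52e-14 in edgeR's quasi-likelihood test. These 4 interactions, unlike the others called, stood in all 24 fits that left out 1 library. nspe-4 was lower at -1.46 ± 0.59 (adjusted p 0.0419) and stood in 8 of them, nspc-6 was higher at 1.52 ± 0.61 (adjusted p 0.042) and stood in 10, and nspc-17 was higher at 1.06 ± 0.38 (adjusted p 0.0203, all edgeR's quasi-likelihood test) and stood in 20. DESeq2 called 5 higher and none lower, and a fit with the replicate number as a block called 6 higher and none lower, so the call of nspe-4 was lost in both. The interactions of nspe-5 and nspc-6 carry the selection of the filter, which both genes had passed through no unc-1(vlt10) library. So does that of nspe-4, which had passed it only with its unc-1(vlt10) libraries. Among markers, the interaction was called higher for 9 of 37 sperm and 3 of 6 yolk proteins. It was also called higher for 1 of 5 pharyngeal gland and 1 of 4 hypodermal markers, and lower for none. The part of these tissues in the nspe interactions was not tested.

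In many nspc genes the effect of both alleles together was smaller than the sum of their separate log2 effects. At any fold change 10 of the 17 had an interaction above 0 at an adjusted p below 0.05 and none below 0, against 23.6% and 24.1% of all tested genes. nspc-14 stood at 0.57 ± 0.11 and nspc-20 at 0.46 ± 0.11. nspc-7 stood at 0.96 ± 0.24 and was called in 9 of the 24 fits that left out 1 library. nspc-13, at 0.04 ± 0.17, and nspc-19, at 0.27 ± 0.18, did not pass, so no departure from the sum of the log2 effects was detected for them.

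Near copies can share reads, and how the counting treated reads with several matches is not given in the sources used here. Summing each locus before the fit makes the value independent of how reads were split within it, though not of reads that were dropped. The summed nspe locus had a log2 fold change of -3.96 ± 0.13 in unc-1(vlt10) against 40Q (adjusted p 4.04e-21) and 4.47 ± 0.13 in the double mutant against unc-1(vlt10) (adjusted p 9.15e-23, edgeR's quasi-likelihood test). The nspc loci, in chromosome order, were at -1.02 ± 0.13, -1.14 ± 0.07 and -0.98 ± 0.07 in unc-1(vlt10), the last just under 2-fold. In nhr-1(vlt16) they were at -0.52 ± 0.12, -0.66 ± 0.07 and -0.85 ± 0.07, and in the double mutant at -0.87 ± 0.12, -1.30 ± 0.07 and -1.31 ± 0.07, all against 40Q. The direction of each locus was that of its abundant members. Among the other tested genes within 20 kb of the 3 nspc loci, in the same order, 0 of 6, 0 of 7 and 1 of 7 were called in unc-1(vlt10) against 40Q. The 1 called was gcsh-1, at -2.16. In nhr-1(vlt16) and in the double mutant, both against 40Q, 1 neighbour was called lower, zig-2, at -1.85 and -2.98. Its lower coordinate lies 1.9 kb before the start of the middle locus, and its values in the other comparisons follow. zig-2 was at -2.62 in the double mutant against unc-1(vlt10), where gcsh-1 was called higher at 1.61, and zig-2 was at -1.13 against nhr-1(vlt16). Both genes were named after their values were seen.

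A few nspc genes varied widely between libraries of the same genotype. The within-genotype SD of log2(CPM + 0.5) was 1.39 for nspc-2, 0.966 for nspc-15, 0.660 for nspc-12 and 0.474 for nspc-17, against 0.140 for nspc-20 and 0.151 for nspc-10. Among the 1594 tested genes within 1.5 times the level of nspc-2, 99.9% had a smaller SD, and their median was 0.177. nspc-2 fell into low and high libraries. It was at 0.140 to 0.517 CPM (3 to 14 reads) in 6 libraries and at 2.24 to 10.2 CPM (44 to 240 reads) in the other 18. The low libraries came from every genotype, with 1 each in 40Q, unc-1(vlt10) and nhr-1(vlt16) and 3 in the double mutant. Its log2 fold change in unc-1(vlt10) of -1.31 ± 0.62 (adjusted p 0.079, edgeR's quasi-likelihood test) was not called, and without 40Q replicate 6, the low 40Q library, it was called at -1.59. Summed with nspc-6, which has the same symbol in the annotation, it was called lower at -1.32 ± 0.54 (adjusted p 0.0436, edgeR's quasi-likelihood test).

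nspc-12 and nspc-15, about 4 kb apart, varied in opposite directions. Within genotypes their Pearson correlation over the 24 libraries was -0.66, with the group means removed, and this is a description of libraries that share depth and processing. It was the lowest value of all nspc pairs, and the pair was picked after the values were seen. In nhr-1(vlt16) replicate 4, for example, nspc-12 was at 5.57 CPM and nspc-15 at 0.309 CPM, the highest nspc-12 and the lowest nspc-15 of that genotype. In double mutant replicate 4 they were at 2.42 and 0.289 CPM. nspc-12 stood at -1.63 ± 0.60 in unc-1(vlt10) against 40Q and nspc-15 at -0.27 ± 0.54, so the change of nspc-15 could not be separated from 0. nspc-15 also overlaps the gene F19H6.6. Across the 40 nspc pairs of the same locus the median within-genotype correlation was 0.20, and across the 96 pairs of different loci it was 0.23.

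**Figure D5:**
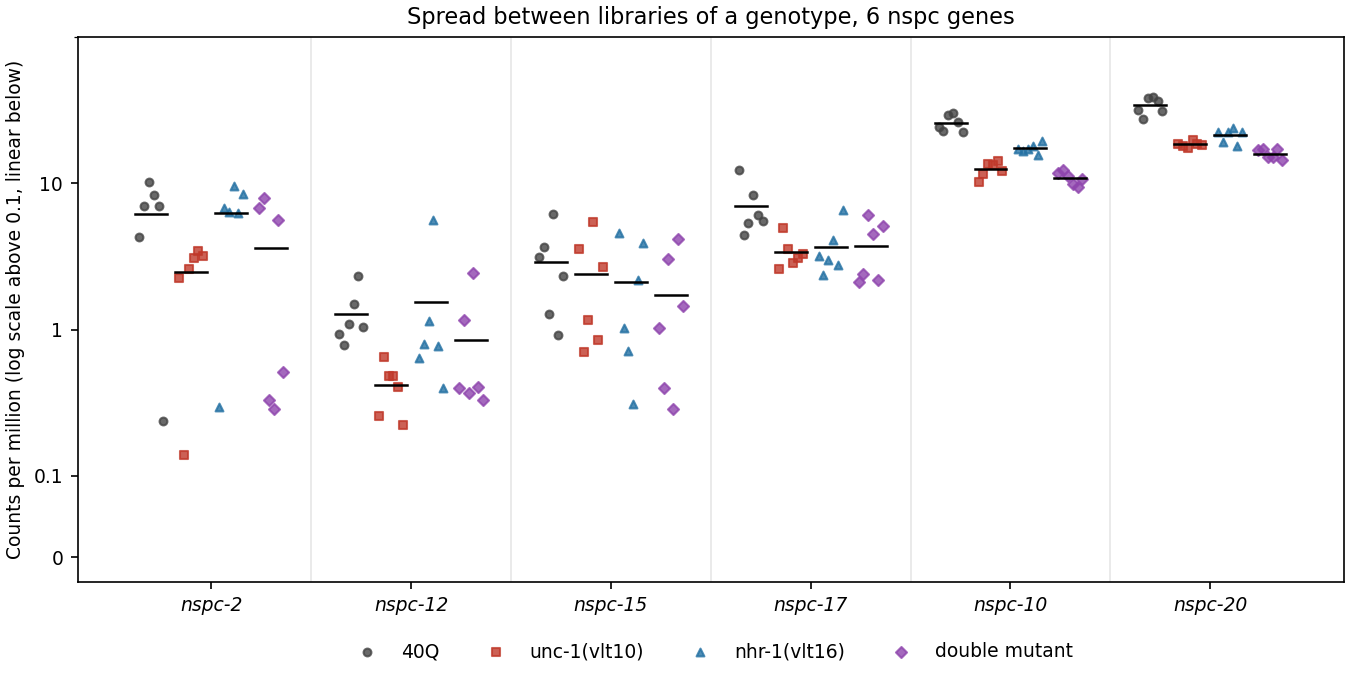
CPM of 6 nspc genes in each of the 24 libraries, on an axis that is logarithmic above 0.1 and linear below, with a bar at each group mean. nspc-2 has 6 low libraries, at 0.140 to 0.517 CPM, spread over all genotypes, and nspc-12 and nspc-15 scatter widely, while nspc-10 and nspc-20 keep tight groups.

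The nspa and nspb members were near the limit of detection. The nspa members apart from nspa-8 had 22 to 179 reads over all 24 libraries and the nspb members 18 to 252. nspa-3, the highest nspa gene per length, had 0 to 11 reads per library in 40Q and 0 to 19 in unc-1(vlt10), with 0 to 7 in nhr-1(vlt16) and 0 to 11 in the double mutant. nspa-5 had 0 to 10, 7 to 16, 2 to 6 and 3 to 22 reads per library in the same order. For nspa-3 all genotypes overlapped, whereas for nspa-5 every unc-1(vlt10) library was above every nhr-1(vlt16) library and the other pairs overlapped. nspb-6, the most abundant nspb gene, was at 0.535 ± 0.195 CPM in 40Q, 0.368 ± 0.242 in unc-1(vlt10), 0.425 ± 0.174 in nhr-1(vlt16) and 0.471 ± 0.140 in the double mutant. nspb-12 was at 0.279 ± 0.246, 0.256 ± 0.175, 0.260 ± 0.160 and 0.444 ± 0.170 CPM in that order, and nspb-10 had 30, 29, 28 and 47 reads. Differences among the genotypes were not detectable at this depth for the nspb genes tested, the log2 fold changes against 40Q running from -0.54 to 0.64 with standard errors of 0.33 to 0.54.

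Of 9293 other genes with a mean of 5 CPM or more, those most like each class sum over the 24 libraries were found by Pearson correlation. The points share the 4 genotypes, so a large genotype difference sets most of each value. Closest to the nspe sum were F44A2.3 (r = 0.99), Y58A7A.1 (r = 0.98) and ZC250.4 (r = 0.98). F44A2.3 was at 5.96 ± 0.620 CPM in 40Q, 1.31 ± 0.238 in unc-1(vlt10), 7.80 ± 0.668 in nhr-1(vlt16) and 7.82 ± 0.778 in the double mutant, the same order of unc-1(vlt10) below 40Q below the other genotypes. Closest to the nspc sum were trhr-1 (0.95), a gene named for the thyrotropin-releasing hormone receptor, R07E3.1 (0.92) and pqn-44 (0.92). trhr-1 was at 14.9 ± 1.21, 7.96 ± 0.470, 10.2 ± 0.747 and 7.86 ± 0.711 CPM in the same order of genotypes, and so was also lower in all 3 mutant strains. For the nspa and nspb sums, which rest on few reads, the closest were Y82E9BR.22 (0.85) and col-39 (0.78), a cuticle collagen.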

How the data were processed

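mRNA of 24 whole-animal libraries was sequenced from a protocol that does not mark strand. Per the submitters' processing notes, reads were aligned with HISAT2 2.0.5 (WBcel235) and the deposited counts per gene, whole numbers that are not normalised, were made with HTSeq 0.6.1. The deposited FPKM values, scaled by the authors to depth and gene length, were used only to compare levels between genes. The length basis and the treatment of reads with several matches are not given in the sources used here. Tables of the authors' own comparisons, made with DESeq2 1.24.0, were not used.

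Counts were fitted in edgeR 4.0.16 (R 4.3.3) with TMM factors, filterByExpr and a quasi-likelihood F-test on genotype over all 24 libraries at once, with Benjamini-Hochberg adjustment over 14865 genes. Standard errors are the log2 fold change divided by the square root of F. CPM used the same factors. A call needed an adjusted p below 0.05 and a change of over 2-fold. The pipeline was tested on simulated data. Positions are from Ensembl release 115, in which 37 of the 40 members had the symbol of the count table. The symbols are given by the count table. The annotation gives 1 symbol to nspc-2 and nspc-6, 1 to nspa-4 and nspa-5, and 1 to nspa-3 and nspa-1, which is not a member. The counts of these genes are therefore treated as less certain.

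Members named individually were the up to 3 with the highest FPKM per class, the up to 3 largest called changes (mean of 1 CPM or more) per comparison, and others chosen after their values were seen. The members, gene lists and tests were chosen with earlier results of these data known. Alternatives were RLE factors, total counts, DESeq2 1.42.0, other filters, a replicate block, the genotypes compared alone, no fold threshold, summed copies and 1 library left out. The last 2 were chosen after seeing the data.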

Additional observations from a re-analysis of the deposited data

Results flagged for a closer look

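In 100 groups (25 members in 4 genotypes), 6 had 1 library set apart from the others by Dixon's test, and chance alone marks about 1 group in 20. The low ones were nspc-2 in unc-1(vlt10) replicate 2, at 0.140 CPM against 2.24 to 3.42 CPM in the others, nspc-2 in nhr-1(vlt16) replicate 1, at 0.295 CPM against 6.23 to 9.63 CPM, and nspc-3 in double mutant replicate 1, at 0.365 CPM against 0.902 to 1.16 CPM. The high ones were nspc-12 in nhr-1(vlt16) replicate 4, at 5.57 CPM against 0.397 to 1.14 CPM, nspc-14 in double mutant replicate 2, at 21.1 CPM against 15.7 to 17.4 CPM, and nspe-2 in nhr-1(vlt16) replicate 1, at 9.60 CPM against 6.998 to 7.50 CPM. No library was set apart in more than 2 members.

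The effect of unc-1(vlt10) differed with and without nhr-1(vlt16), by the interaction term in edgeR, for 7 members. The log2 difference was 5.02 for nspe-1, 4.60 for nspe-2, 3.97 for nspe-5, 3.68 for nspe-7, 1.52 for nspc-6 and 1.06 for nspc-17, and -1.46 for nspe-4.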

How the results depend on the processing

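Counts of called members stayed within 1.5 times the value reported in 51 of 59 refits. The fold threshold mattered most. With an adjusted p alone the counts were 16 for nhr-1(vlt16) against 40Q, 10 for the double mutant against unc-1(vlt10), 11 for the double mutant against nhr-1(vlt16) and 15 for the interaction. Keeping only genes at 1 CPM or more in 6 libraries left 4 interaction calls, since fewer members were tested. Summing members of 1 annotated symbol gave 4 called members for the double mutant against nhr-1(vlt16). There the single sum of nspa-4 and nspa-5 was called higher (log2 1.04, adjusted p 0.0415, edgeR) and was counted once for each of them. Summing loci, which took in 35 members, gave 1 call for nhr-1(vlt16) against 40Q and 0 for the double mutant against nhr-1(vlt16). In these the nspc sums stayed under 2-fold (reaching -0.85 and -0.64). With 1 library left out, the counts were 13 to 17 for unc-1(vlt10), 2 to 4 for nhr-1(vlt16) and 10 to 11 for the double mutant, each against 40Q, 5 to 7 for the double mutant against unc-1(vlt10), 2 to 4 against nhr-1(vlt16) and 4 to 8 for the interaction. The 4 calls against nhr-1(vlt16) came without double mutant replicate 2, and the 4 of the interaction without nhr-1(vlt16) replicate 2. Of 584 values of 13 named members, 559 kept their side of the threshold, 24 passed once the fold threshold was dropped, and none reversed. nspc-18 in unc-1(vlt10) against 40Q missed 2-fold on total counts alone (-0.97). A replicate block gave 14, 3, 10, 6, 2 and 6 calls in the order of the report. Deviations of same-numbered libraries had a median correlation of -0.015 and 3 of 36 pairs exceeded 0.1, so no pairing by number was detected. These values cannot tell whether same-numbered libraries were handled together. Summing copies by sequence identity was not run. Without a filter on low counts all 40 members were tested and 16 were called for unc-1(vlt10) against 40Q.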
